A study of Homo sapiens with 18 samples.

Results

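Caveolins, cavins and ezrin-radixin-moesin (ERM) proteins shape the cell surface, and 7 of their genes were followed in DLD1, an established human colorectal adenocarcinoma line. They are the caveolin genes CAV1 and CAV2, the cavin genes CAVIN1 and CAVIN3, and the ERM genes MSN, EZR and RDX, taken by symbol from a table of 47021 genes. All 7 were in the table and passed the filter on low counts, as did 14732 genes in all. CAV1 and MSN were chosen by their measured level, which stood high with guide sgZ1 and, for MSN, also in 1 library of guide sgZ3. Their values are therefore given as a description, with no test. CAVIN3 passed the filter only through the libraries in which it was high, so it too is described without a test. The other 4 genes carry tests adjusted over all genes.

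Poly(A) RNA was counted in 9 libraries, 3 each from cells with guide sgZ1 against ZNF692, cells with guide sgZ3 against ZNF692, and cells with the control guide sgC. All groups are stable DLD1 lines made with lentivirus and selected in 10 µg/ml puromycin. The labels call the genotype of the sgZ1 and sgZ3 cells ZNF692 knockout and that of the sgC cells wild type, and do not say whether a line is 1 clone or a pool. Separate cultures are not stated for the replicates either, and a p-value therefore reflects the spread between libraries, possibly a technical one.

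Caveolae are small flask-shaped pits of the plasma membrane. CAV1 and CAV2 proteins form oligomers in the inner leaflet, and cavins, with CAVIN1 as the obligate one, coat them from the cytosol. Caveolae are abundant in fibroblasts, endothelium and adipocytes, flatten under stretch, and are sparse in intestinal epithelium. ERM proteins link membrane proteins to cortical actin through an N-terminal FERM domain and a C-terminal actin-binding tail, and are opened by phosphorylation. Ezrin is the ERM protein of intestinal microvilli, while moesin is best known from leukocytes, endothelium and mesenchymal cells.

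The targeted gene, ZNF692, had no less mRNA with sgZ1 or sgZ3 than with the control guide. It averaged 10.3 ± 1.01 CPM in sgZ1 and 7.43 ± 0.988 CPM in sgZ3, against 6.51 ± 0.446 CPM in sgC (SD, n = 3 each). ZNF692 mRNA was called higher in sgZ1 than in sgC, by a log2 fold change of 0.66 (SE 0.14; edgeR, adjusted p = 0.0048). In sgZ3 its change was 0.19 and was not called (edgeR, adjusted p = 0.32). CPM is used here for counts scaled to the TMM-adjusted library size. Library totals ran from 16044224 to 24535642 counts. All libraries carried epithelial markers, with a summed level of 10 genes of 8507 to 9356 CPM in sgZ1, 10508 to 11473 CPM in sgZ3 and 8683 to 9713 CPM in sgC. CDX1 alone of these stayed under 1 CPM. Of the 9 epithelial markers tested, 4 were called in sgZ1 against sgC by edgeR, all lower (EPCAM, CDX2, LGALS4 and GPA33), beside 10.3% of all genes called lower. In sgZ1 against sgZ3 6 were called, all lower, beside 12.8% of all genes called lower. In sgZ3 against sgC 3 were higher and 1 lower, beside 19.2% of all genes called higher and 17.1% lower. GPA33, an intestinal surface antigen, averaged 2.52 ± 0.441 CPM in sgZ1 and 4.25 ± 0.455 CPM in sgZ3, against 7.04 ± 1.62 CPM in sgC. The part of these markers in the members' changes was not tested. A pair of libraries stood apart by part of a list of fibroblast markers. The sum of 12 such genes was 118 CPM in sgZ1 replicate 2 and 123 CPM in sgZ3 replicate 3, and 6.70 to 9.21 CPM in the other 7 libraries. VIM, for example, had 22.9 and 21.2 CPM in those libraries and at most 1.22 CPM elsewhere. SPARC had 64.3 and 66.8 CPM there, COL1A1 12.2 and 15.2 CPM, and COL5A1 12.9 and 14.2 CPM. Of the 12 genes 6 stayed under 1 CPM in every library, among them COL1A2, LUM and DCN. THY1 had 1.35 and 1.17 CPM in the pair, beside 1.35 CPM in sgZ1 replicate 1. Endothelial, adipocyte and packaging-cell markers each summed to at most 10.0 CPM in every library, with EMCN, LEP and NEFM at 0 throughout. PAX2, of the 6 packaging-cell (embryonic kidney) markers, stood high in sgZ1, at 2.35 ± 0.775 CPM, with 0.0801 ± 0.0479 CPM in sgZ3 and 0.0341 ± 0.0296 CPM in sgC (SD, n = 3 each). The sum of the 6 was 2.29 to 4.01 CPM in sgZ1, 0.304 to 0.947 CPM in sgZ3 and 0.853 to 1.61 CPM in sgC, and its part in the results was not tested. Of 8 leukocyte markers 5 were under 1 CPM in every library, and the sum was 81.3 to 94.2 CPM in sgZ1, 104 to 148 CPM in sgZ3 and 87.5 to 93.2 CPM in sgC. The sgZ1 libraries also stood apart by genes near 0 elsewhere, such as MAGEB2 with 76.4 CPM in sgZ1, 0.311 CPM in sgZ3 and 0.192 CPM in sgC.

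Among caveolins, CAV1 was high in every sgZ1 library and CAV2 was raised with it, while sgZ3 cells had slightly more CAV1 and no detectable change of CAV2. CAV1 (ENSG00000105974.13), the main structural caveolin, lies on chromosome 7 from 116524785 to 116561184 on the plus strand (GRCh38, protein coding). It had 174, 187 and 163 CPM in sgZ1 replicates 1, 2 and 3, and 47.9, 48.5 and 51.9 CPM in sgZ3. The sgC replicates had 38.2, 35.7 and 36.5 CPM. The 3 groups did not overlap, and the sgZ1 libraries were more than 3 times as high as any other. The fitted log2 fold change was 2.25 (SE 0.09) for sgZ1 over sgC, a 4.74-fold difference, and 0.43 (SE 0.09) for sgZ3 over sgC, a 1.34-fold difference. In bulk RNA, more cells of a type and more RNA per cell cannot be told apart.

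CAV2 (ENSG00000105971.15), which joins CAV1 in hetero-oligomers, lies next to it at 116287380 to 116508541 on the same strand, with 16243 bases between the annotated genes. It had 94.6, 118 and 89.3 CPM in sgZ1 and 43.2, 40.6 and 45.8 CPM in sgZ3, against 43.6, 40.5 and 40.2 CPM in sgC. Every sgZ1 library was above every other library, and the sgZ3 and sgC ranges overlapped. CAV2 rose in sgZ1 by a log2 fold change of 1.28 (SE 0.11, adjusted p = 7.5e-06 by the quasi-likelihood test of edgeR, adjusted by Benjamini-Hochberg over all genes). In sgZ3 the value was 0.06, with a 95% interval of -0.19 to 0.31 (edgeR, adjusted p = 0.71), and its sign changed with the scaling of the libraries. The direct difference between the guides, 1.22 (SE 0.11), passed the same edgeR test (adjusted p = 1.1e-05).

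Of the cavins, CAVIN1 was higher with both guides, and CAVIN3 was counted in sgZ1 and in 1 sgZ3 library. CAVIN1 (ENSG00000177469.13; chromosome 17, 42402452 to 42423517, minus strand), without which caveolae do not form, had 89.8, 84.4 and 107 CPM in sgZ1. It had 59.1, 62.1 and 92.2 CPM in sgZ3, against 43.1, 43.4 and 51.0 CPM in sgC. Both guides' libraries lay above all sgC libraries, and sgZ3 replicate 3 reached the sgZ1 range. CAVIN1 rose by 1.03 (SE 0.16) on the log2 scale in sgZ1 and by 0.63 (SE 0.16) in sgZ3 (edgeR, adjusted p = 0.00067 and 0.011). The sgZ3 call was lost without sgC replicate 1, where the change was 0.59 and the edgeR adjusted p was 0.054, and the change was 0.40 without sgZ3 replicate 3 (adjusted p = 0.016). The guides differed by 0.40 (SE 0.16, 95% interval 0.05 to 0.75), which missed the edgeR threshold (adjusted p = 0.083). That difference was 0.49 without sgZ1 replicate 2 (edgeR, adjusted p = 0.047) and 0.63 without sgZ3 replicate 3 (adjusted p = 0.0016).

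CAVIN3 (ENSG00000170955.10; chromosome 11, 6318946 to 6320647, minus strand), a cavin that binds protein kinase C delta, was scarce throughout. It had 39, 77 and 57 counts in sgZ1, 0, 0 and 23 counts in sgZ3, and 0 counts in each sgC library. The sgZ1 level was 1.82, 3.15 and 2.81 CPM, and that of sgZ3 replicate 3 was 1.17 CPM (exact Poisson interval 0.740 to 1.75 CPM, counting error only). Against the limit that 0 counts over the sgC group allow (3 counts, 0.0479 CPM), CAVIN3 was at least 54.1-fold higher in sgZ1, and at least 24.4-fold higher in sgZ3 replicate 3.

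**Figure D1:**
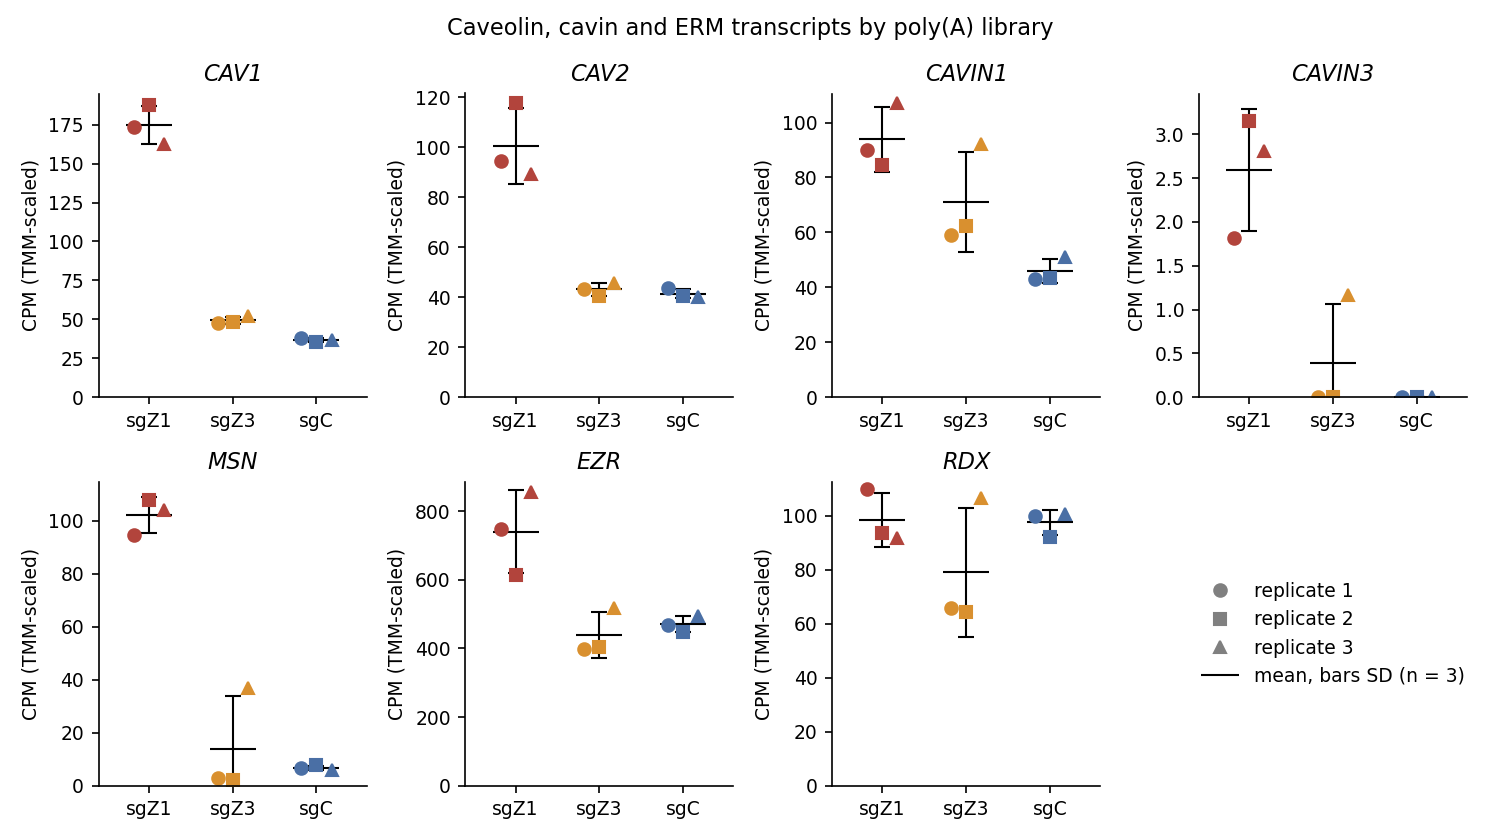
TMM-scaled CPM (linear axis from 0) of the 7 genes in each poly(A) library, with sgZ1, sgZ3 and sgC from left to right, a symbol per replicate and the mean with SD bars (n = 3). The sgZ1 points of CAV1, CAV2, CAVIN3, MSN and EZR lie above every other point, and the triangle of sgZ3 replicate 3 stands above its sister libraries for CAVIN1, CAVIN3, MSN, EZR and RDX.

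Among ERM genes, MSN was far higher in sgZ1, EZR moderately higher, and RDX not detectably different. MSN (ENSG00000147065.17, moesin) lies on chromosome X from 65588377 to 65741931 on the plus strand (GRCh38). It had 94.6, 108 and 104 CPM in sgZ1, and 2.98, 2.06 and 36.9 CPM in sgZ3. The sgC replicates had 6.58, 7.66 and 5.97 CPM. All sgZ1 libraries were far above the rest, sgZ3 replicate 3 lay between, and sgZ3 replicates 1 and 2 lay below every sgC library. The log2 fold change of sgZ1 over sgC was 3.93 (SE 1.03), 15.2-fold, and was 3.93 again without sgZ3 replicate 3. For sgZ3 over sgC the fitted value of 1.09 (SE 1.02) rested on sgZ3 replicate 3, and it was -1.43 without that library.

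That library, sgZ3 replicate 3, had 14.7 times the MSN level of its sister libraries' mean and 36.2% of the sgZ1 mean. Across the 14732 genes 1.66% were at least 2-fold higher there than in its sisters (on CPM + 0.5). Genes high in sgZ1 stood at different levels in it. DKK1, a Wnt antagonist, had 324 CPM on average in sgZ1 and 8.27 CPM in sgZ3 replicate 3, with 0.74 and 1.03 CPM in its sisters and 0.430 CPM in sgC. ANTXR1, one of the genes most like MSN in profile, had 15.1 CPM on average in sgZ1 and 8.93 CPM in sgZ3 replicate 3, with 0.474 and 0.380 CPM in its sisters and 0.712 CPM in sgC. Some fibroblast markers were raised in sgZ3 replicate 3, as given above, and their part in its MSN level was not tested. In sgZ1 the libraries without those markers raised, replicates 1 and 3, had 94.6 and 104 CPM of MSN. Replicate 2, in which they were raised, had 108 CPM.

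MSN has 2 RefSeq start sites in the table used, and EZR 1, whose upstream windows hold no annotated exon. They are printed because these 2 genes share a protein family and differed in level and response. Each is 250 bases, 5′ to 3′ on the gene's strand, from RefSeq on GRCh38.p14. Capitals mark matches, on either strand, to 4 motifs: GGAATG (TEAD), TGANTCA (AP-1), GGGCGG (SP1 or KLF) and CACGTG (MYC E-box).
MSN upstream start, chrX:65588127-65588376, plus strand: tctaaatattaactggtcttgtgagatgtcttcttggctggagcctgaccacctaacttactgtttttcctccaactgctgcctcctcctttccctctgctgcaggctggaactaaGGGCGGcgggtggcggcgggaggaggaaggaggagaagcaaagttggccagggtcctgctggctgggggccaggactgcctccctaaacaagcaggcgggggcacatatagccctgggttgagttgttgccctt
MSN downstream start, chrX:65667404-65667653, plus strand: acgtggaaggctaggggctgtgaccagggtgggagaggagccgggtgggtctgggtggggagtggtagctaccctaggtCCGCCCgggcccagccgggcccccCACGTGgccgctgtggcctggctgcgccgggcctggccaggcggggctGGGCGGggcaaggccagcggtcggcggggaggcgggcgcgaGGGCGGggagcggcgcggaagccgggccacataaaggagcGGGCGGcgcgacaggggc
EZR, chr6:158818236-158818485, minus strand: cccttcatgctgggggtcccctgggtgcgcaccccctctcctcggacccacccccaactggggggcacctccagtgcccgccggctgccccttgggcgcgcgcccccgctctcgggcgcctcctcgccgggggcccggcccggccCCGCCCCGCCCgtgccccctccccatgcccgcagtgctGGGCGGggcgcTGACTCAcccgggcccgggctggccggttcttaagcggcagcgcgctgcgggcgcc
The upstream MSN window, at 57.2% G+C, held 1 GGGCGG and none of the other motifs. The downstream one, at 78.0% G+C, held 4 GGGCGG and 1 CACGTG, which starts 147 bases before the gene start. The EZR window, at 80.8% G+C, held 3 GGGCGG, of which a pair share 1 base, and 1 AP-1 match, TGACTCA, at 56 bases before the start. The other matches do not overlap each other. Of 35116 windows of this length in the table, 42.6% held GGGCGG, 11.9% GGAATG, 6.57% TGANTCA and 6.34% CACGTG. These matches are a description of the letters only. Windows of CAV1, CAV2 and RDX overlap annotated exons and are not shown.

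EZR (ENSG00000092820.18, ezrin; chromosome 6, 158765741 to 158819412, minus strand) was the most abundant of the 7 genes. It had 748, 615 and 857 CPM in sgZ1 and 398, 404 and 518 CPM in sgZ3, against 468, 449 and 495 CPM in sgC. The sgZ1 libraries lay above all others, and the sgZ3 libraries lay on both sides of the sgC range. EZR rose in sgZ1 by 0.65 on the log2 scale (SE 0.13; edgeR, adjusted p = 0.0033), and the guides differed by 0.75 (SE 0.13; adjusted p = 0.0012). In sgZ3 the change was -0.10, with a 95% interval of -0.38 to 0.18 (edgeR, adjusted p = 0.58). With sgZ1 replicate 2 and sgZ3 replicate 3 both left out, the sgZ3 value was -0.28 and passed the test (edgeR, adjusted p = 0.0051).

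RDX (ENSG00000137710.17, radixin; chromosome 11, 109864295 to 110296722, minus strand) had 110, 93.5 and 91.6 CPM in sgZ1. It had 65.8, 64.4 and 107 CPM in sgZ3, against 99.9, 92.2 and 100 CPM in sgC. The sgZ1 and sgC ranges overlapped, whereas sgZ3 replicates 1 and 2 lay below every other library and replicate 3 lay above every sgC library. The change in sgZ1 was 0.01 on the log2 scale with a 95% interval of -0.35 to 0.37 (edgeR, adjusted p = 0.97), and its sign changed with the scaling. In sgZ3 it was -0.30 (SE 0.17; edgeR, adjusted p = 0.17). Without sgZ3 replicate 3 it was -0.58 and passed the test (edgeR, adjusted p = 0.00092), and the difference between guides was then 0.59 (adjusted p = 0.00094), against 0.31 with all libraries (adjusted p = 0.18).

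Of the 4 tested members, 3 rose in sgZ1 against sgC (CAV2, CAVIN1 and EZR), where 15.5% of all genes tested were called higher and 25.8% in either direction. These 3 had sgZ1 libraries that did not overlap the sgC libraries, as did 44.3% of all genes. In sgZ3 against sgC 1 of 4 rose, CAVIN1, beside 19.2% of all genes called higher and 36.3% in either direction. It was also the one member of the 4 without overlap, beside 52.3% of all genes. None of the 4 was called without sgC replicate 1, and without sgZ3 replicate 3 CAVIN1 was called higher and RDX lower. Between sgZ1 and sgZ3, 2 of 4 were called, CAV2 and EZR, both higher in sgZ1, beside 15.8% of genes called higher, 12.8% lower and 28.6% in all. All 4 were called without sgZ3 replicate 3. Over the mean of both guides against sgC, CAV2 and CAVIN1 were called higher (edgeR, adjusted p = 0.00078 and 0.0017), beside 18.6% of genes called higher, 14.6% lower and 33.2% in all. EZR passed that test without sgZ1 replicate 2 and RDX, lower, without sgZ3 replicate 3 (edgeR, adjusted p = 0.033 and 0.015). The 2 guides share the sgC libraries, so these comparisons are not independent of each other.

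**Figure D2:**
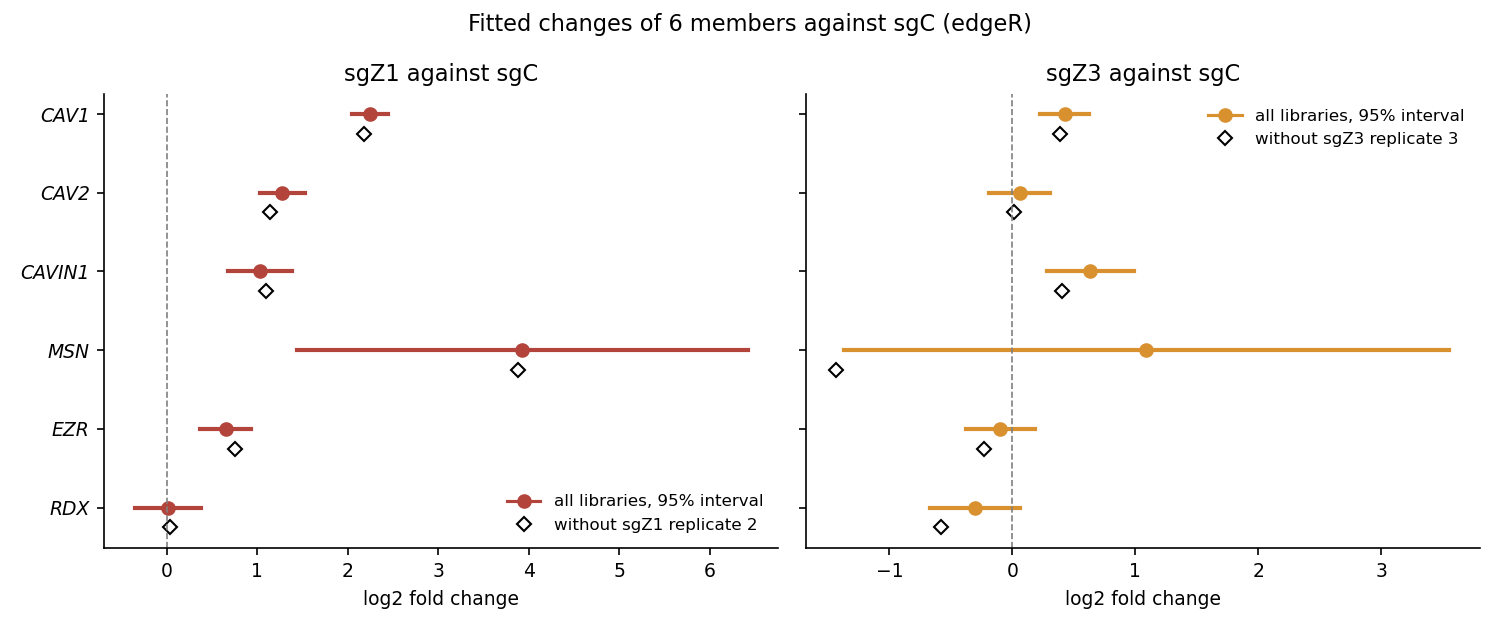
Log2 fold changes of 6 genes (edgeR) for sgZ1 over sgC on the left and sgZ3 over sgC on the right, with bars for the 95% interval and diamonds for the value without sgZ1 replicate 2 or sgZ3 replicate 3. CAV1 sits at 2.25 and MSN at 3.93 in sgZ1, and in sgZ3 the MSN diamond lies at -1.43 and its filled point at 1.09; the 2 panels have different horizontal scales, and CAVIN3 is left out because sgC held 0 counts.

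Scaled to gene length, the order of the members' levels differed between groups. EZR was the highest in every group, with 221 ± 36.2 CPM per kb in sgZ1, 132 ± 20.2 in sgZ3 and 141 ± 6.93 in sgC (SD, n = 3 each). In sgZ1 the order below it was CAV1 at 42.8 ± 3.03, CAVIN1 at 24.5 ± 3.12, MSN at 17.1 ± 1.13, CAV2 at 14.5 ± 2.18, RDX at 11.5 ± 1.17 and CAVIN3 at 1.55 ± 0.415 CPM per kb. There the MSN and CAV2 ranges overlapped. In sgZ3 CAVIN1 came next at 18.6 ± 4.77 CPM per kb, before CAV1 at 12.1 ± 0.520 and RDX at 9.26 ± 2.82, whose ranges overlapped. CAV2 followed at 6.24 ± 0.380 and MSN at 2.34 ± 3.33 CPM per kb. In sgC EZR was followed by CAVIN1 at 12.0 ± 1.16 and RDX at 11.4 ± 0.545 CPM per kb, with overlapping ranges, then by CAV1 at 9.02 ± 0.320, CAV2 at 5.99 ± 0.273 and MSN at 1.13 ± 0.143. CAV1 thus stood below CAVIN1 and RDX in sgC and above both in sgZ1.

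The makeup of each family shifted within the library, a ratio that library size does not touch. MSN made up 6.27%, 8.46% and 6.13% of the summed ERM level per kb in sgZ1 replicates 1, 2 and 3. Its part was 0.392%, 0.268% and 3.56% in sgZ3, against 0.721%, 0.876% and 0.621% in sgC. EZR still made up 86.4% or more of the ERM level in every library. CAV1 per kb was 3.12, 2.70 and 3.09 times CAV2 in sgZ1 and 1.88, 2.03 and 1.92 times in sgZ3, against 1.49, 1.49 and 1.54 times in sgC. CAV1 per kb was 1.81, 2.08 and 1.42 times CAVIN1 in sgZ1, above every other library. It was 0.761, 0.732 and 0.528 times in sgZ3, against 0.832, 0.770 and 0.673 times in sgC. CAV1 and MSN enter each of these ratios, so they too are descriptions.

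**Figure D3:**
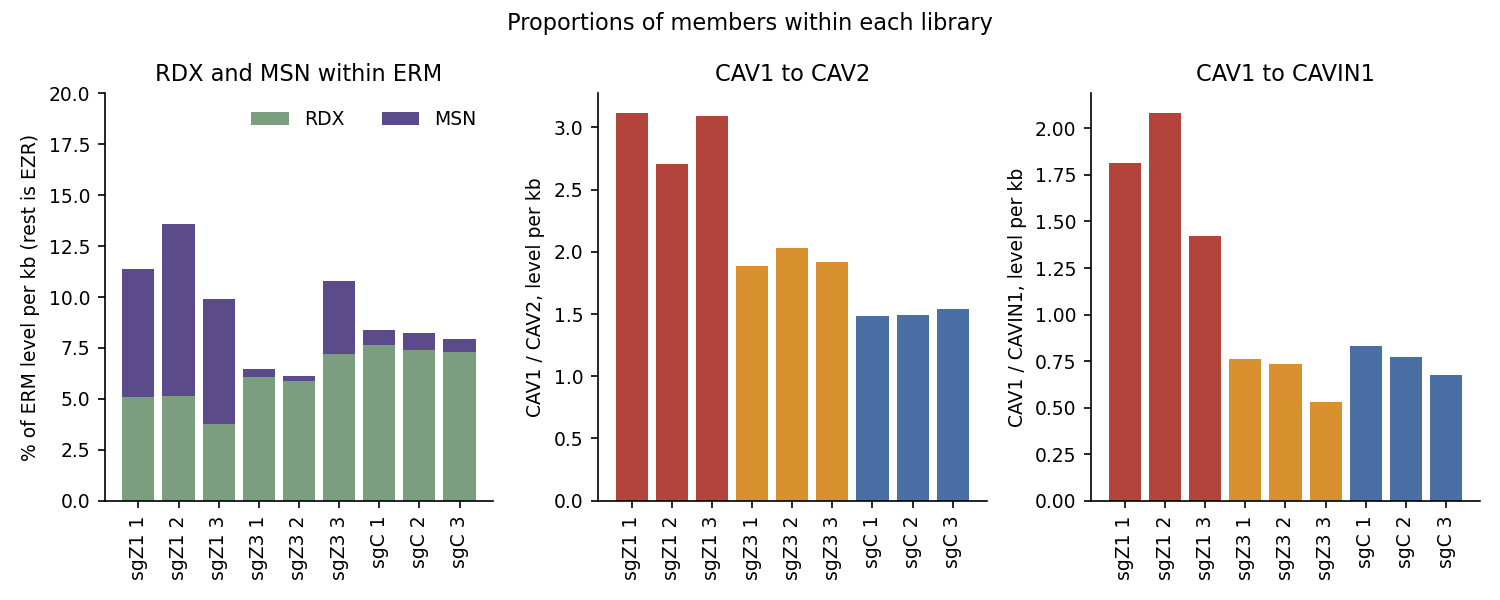
Bars from 0 for each library, grouped as sgZ1, sgZ3 and sgC: RDX and MSN as a percentage of the ERM level per kb (the rest is EZR), and the ratios of CAV1 to CAV2 and of CAV1 to CAVIN1 per kb. MSN fills 6.13% to 8.46% in sgZ1, and the CAV1 to CAV2 ratio is 2.70 to 3.12 in sgZ1 and 1.49 to 1.54 in sgC.

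Near-identical and overlapping genes were checked for shared reads. No stretch of 50 bases was shared between members, and 3.58% of MSN's such stretches and 2.86% of RDX's also occur in another annotated gene. The processed copies MSNP1, RDXP1 and RDXP2 had 0 counts in every library. CAV2, CAVIN3 and EZR overlap exons of genes on the opposite strand, and the strand setting of counting is not given in the sources used here, so reads of the 2 strands cannot be told apart there. EZR-AS1, the partner of EZR, had at most 2 counts in a library. AC002066.1, over CAV2, had 9, 8 and 11 counts in sgZ1 and 1, 1 and 3 in sgZ3, against 2, 1 and 2 in sgC. The partner of CAVIN3 was not analysed here.

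Caveolar coat and neck genes were partly raised, with EHD2 at the head. Of 11 listed, 7 were tested, 1 of which, PACSIN1, passed the filter only through sgZ1. Of the other 6, 2 rose in sgZ1 and none fell, EHD2 and PACSIN3, beside 15.5% of all genes called higher. EHD4 and EHD1 changed in sgZ1 by 0.23 and 0.07 on the log2 scale and were not called (edgeR, adjusted p = 0.053 and 0.61). EHD2, the ATPase that rings the caveolar neck, had 26.9, 28.5 and 33.8 CPM in sgZ1, and 0.744, 0.759 and 13.3 CPM in sgZ3. In sgC it had 1.07, 1.29 and 1.24 CPM, so sgZ3 replicate 3 stood between the sgZ1 and the other libraries. EHD2 rose in sgZ1 by 4.63 (SE 1.08; edgeR, adjusted p = 0.023), and the call was lost without any 1 of sgC replicates 1, 2 and 3 (adjusted p = 0.099, 0.086 and 0.095). In sgZ3 the fitted 2.09 (edgeR, adjusted p = 0.19) was -0.66 without sgZ3 replicate 3, with some fibroblast markers raised in that library as above.

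PACSIN1 and PACSIN3 are F-BAR proteins that bend membranes. PACSIN3 averaged 29.5 ± 6.02 CPM in sgZ1 and 16.6 ± 1.22 CPM in sgZ3, against 15.2 ± 1.19 CPM in sgC (SD, n = 3 each), a log2 fold change of 0.96 in sgZ1 (edgeR, adjusted p = 0.00049). PACSIN1 was low, at 1.36 ± 0.483 CPM in sgZ1, 0.131 ± 0.0745 CPM in sgZ3 and 0.114 ± 0.0405 CPM in sgC, and every sgZ1 library was above every other. PACSIN2, the F-BAR protein best known at caveolae, changed by -0.12 (edgeR, adjusted p = 0.33). ROR1, a receptor that scaffolds CAV1 and CAVIN1, changed by -0.02 (adjusted p = 0.92). In sgZ3 2 of the same 6 rose, EHD1 by 0.35 and EHD4 by 0.29 (edgeR, adjusted p = 0.011 and 0.016), beside 19.2% of all genes called higher. With library totals alone as the scaling, neither was called, and leaving out sgZ3 replicate 1 or 2 or any 1 sgC replicate left 1 call. CAV3, the muscle caveolin, had 0 counts in every library, and CAVIN2, CAVIN4 and EHD3 averaged under 1 CPM in each group.

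Raft scaffolds, which mark ordered membrane outside caveolae, had no call in sgZ1 and 2 in sgZ3. Of FLOT1, FLOT2 and STOM, 0 were called in sgZ1 against sgC by edgeR, DESeq2 or limma-voom, beside 25.8% of all genes called by edgeR. So few genes cannot tell 0 calls from that share. Of them 1 had an unadjusted edgeR p under 0.05, and the median was -0.08. FLOT2 and STOM rose in sgZ3 by 0.31 and 0.29 (edgeR, adjusted p = 0.017 and 0.045), beside 19.2% of all genes called higher. Neither was called with library totals alone, and 0 or 1 was called whenever 1 sgZ3 replicate, 1 sgC replicate or sgZ1 replicate 1 or 2 was left out. Of the scaffolds that join ERM proteins to membrane proteins, SLC9A3R1, the main PDZ partner of ezrin, averaged 185 ± 15.3 CPM in sgZ1 and 184 ± 2.96 CPM in sgZ3, against 139 ± 2.17 CPM in sgC. It rose by 0.41 and 0.40 (edgeR, adjusted p = 0.0040 and 0.0045). SLC9A3R2 rose in sgZ1 by 0.45 (edgeR, adjusted p = 0.020), a call lost without sgZ1 replicate 3 or any 1 sgC replicate (adjusted p = 0.059 to 0.075). NF2, the gene of the ERM-related merlin, changed by 0.22 in sgZ1 (adjusted p = 0.19).

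Among membrane and membrane-linked proteins bound by ERM proteins, those called in sgZ1 by edgeR in the main fit were lower. Of 10 tested, 1, SPN, passed the filter only through sgC. Of the other 9, CLIC4 and CLIC5 were called, both lower, beside 10.3% of all genes called lower. The median of all 10, with SPN among them, was -0.27. In sgZ1 1 gene of the list was called higher by DESeq2, and 2 were by edgeR with no low-count filter. The largest sgZ1 change of the list was a rise, that of L1CAM, named after its values were seen. It had 2.56, 6.22 and 3.10 CPM in sgZ1 and 0.271, 0.380 and 4.57 CPM in sgZ3, against 0.536, 0.428 and 0.640 CPM in sgC. Its change of 2.87 (SE 0.95) in sgZ1 missed the threshold (edgeR, adjusted p = 0.059). CLIC4, a chloride intracellular channel protein that works with ezrin, had 433, 367 and 333 CPM in sgZ1 and 344, 307 and 361 CPM in sgZ3, against 756, 637 and 703 CPM in sgC. It fell by 0.89 (SE 0.11) in sgZ1 and by 1.05 (SE 0.11) in sgZ3 on the log2 scale (edgeR, adjusted p = 0.00013 and 0.00015). CLIC5, its relative, which binds ezrin and radixin, averaged 13.3 ± 3.00 CPM in sgZ1 and 15.8 ± 1.17 CPM in sgZ3, against 24.1 ± 1.68 CPM in sgC, and fell with both guides (edgeR, adjusted p = 0.0015 and 0.0097). SPN, the leukocyte sialophorin, averaged 0.251 ± 0.147 CPM in sgZ1 and 0.177 ± 0.0839 CPM in sgZ3, against 0.625 ± 0.132 CPM in sgC.

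In sgZ3 1 of those 9 rose and 3 fell, beside 19.2% of all genes called higher and 17.1% lower. The riser was ICAM2, an adhesion molecule with a classic ERM-binding tail. ICAM2 averaged 14.9 ± 2.56 CPM in sgZ1 and 32.9 ± 4.92 CPM in sgZ3, against 18.1 ± 2.02 CPM in sgC, a change of 0.86 in sgZ3 (edgeR, adjusted p = 0.0018). The fallers included CLIC4 and CLIC5. With SPN counted, 4 fell, and this became 2 without sgZ3 replicate 2 or sgC replicate 2 or 3, and 7 without sgZ1 replicate 2 and sgZ3 replicate 3. CD44, the hyaluronan receptor, averaged 295 ± 27.7 CPM in sgZ1 and 256 ± 36.0 CPM in sgZ3, against 269 ± 17.5 CPM in sgC, and was not called in either guide (edgeR, adjusted p = 0.41 and 0.65); it was named after its values were seen.

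Kinases and the phosphatase that act on the ERM regulatory threonine were lower in part in sgZ3. Of 9 tested, 0 were called in sgZ1 by edgeR in the main fit or by limma-voom, beside 25.8% of all genes called by edgeR. By DESeq2 2 were called, both lower. By edgeR 2 were called lower with upper-quartile factors and 2 with library totals alone, and 1 was called higher with no low-count filter. An unadjusted edgeR p under 0.05 was reached by 3, and the median was -0.06. In sgZ3 4 passed the test, all lower, beside 17.1% of all genes called lower (median -0.53, beside -0.02 over all genes). PPP1CB, the catalytic subunit of myosin phosphatase, averaged 272 ± 35.7 CPM in sgZ1 and 237 ± 21.8 CPM in sgZ3, against 333 ± 6.16 CPM in sgC, and fell by 0.49 in sgZ3 (edgeR, adjusted p = 0.0048). SLK, an ERM kinase, had 45.7, 28.5 and 44.0 CPM in sgZ1, and 13.9, 17.3 and 34.7 CPM in sgZ3, against 40.7, 35.7 and 44.6 CPM in sgC. As for RDX, sgZ3 replicate 3 stood above its sister libraries. SLK, PRKCQ and PPP1R12A, the targeting subunit of the phosphatase, fell by 0.87, 0.53 and 0.78 in sgZ3 (edgeR, adjusted p = 0.047, 0.031 and 0.044). The 4 calls became 7 without sgZ3 replicate 3, 2 without sgZ1 replicate 1, sgZ1 replicate 3 or sgC replicate 2, and 1 without sgZ3 replicate 1, sgZ3 replicate 2, sgC replicate 1 or sgC replicate 3.

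Genes of the microvillus core, the actin bundle that ezrin ties to the membrane, did not move as one. Of 10 listed 5 were tested, 1 of which, USH1C, would not have passed the filter without sgZ1. Of the other 4, 1 rose and 2 fell in sgZ1, beside 15.5% of all genes called higher and 10.3% lower. In sgZ3 3 of the 4 were called, all lower, beside 17.1% of all genes. ESPN, the actin bundler espin, averaged 10.0 ± 2.36 CPM in sgZ1 and 1.84 ± 0.415 CPM in sgZ3, against 3.90 ± 0.342 CPM in sgC. It rose by 1.36 in sgZ1 and fell by 1.08 in sgZ3 (edgeR, adjusted p = 0.00042 and 0.0044). USH1C, the scaffold harmonin, averaged 2.98 ± 0.570 CPM in sgZ1, 0.209 ± 0.0596 CPM in sgZ3 and 0.429 ± 0.288 CPM in sgC, with every sgZ1 library above every other. The bundler PLS1 fell by 0.46 in sgZ1 and by 0.38 in sgZ3 (edgeR, adjusted p = 0.0077 and 0.018). EPS8, an actin-capping protein, fell by 0.46 in sgZ1 and by 0.26 in sgZ3 (adjusted p = 0.0032 and 0.045). VIL1, villin, missed the threshold with each guide (adjusted p = 0.073 and 0.19). The 3 calls in sgZ3 became 1 without sgZ3 replicate 1 or 2 or sgC replicate 1 or 3.

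Targets of YAP and TAZ, coactivators tied to membrane tension and to caveolae, differed in direction. Of 10 tested, 2 passed the test in sgZ1, both lower, beside 10.3% of all genes called lower. In sgZ3 3 rose and 4 fell, beside 19.2% of all genes called higher and 17.1% lower. CCN1 averaged 41.4 ± 5.24 CPM in sgZ1 and 75.8 ± 3.97 CPM in sgZ3, against 44.4 ± 0.781 CPM in sgC, and rose by 0.77 in sgZ3 (edgeR, adjusted p = 0.00042). AJUBA fell by 0.38 in sgZ1 and by 0.33 in sgZ3 (edgeR, adjusted p = 0.0053 and 0.0096). CRIM1 fell by 0.57 in sgZ1 (edgeR, adjusted p = 0.049). The count of 2 in sgZ1 was 1 without any 1 sgZ1 replicate, any 1 sgC replicate or sgZ3 replicate 2, and 4 without sgZ3 replicate 3. In sgZ3 the 3 that rose became 1 without sgC replicate 1, and the 4 that fell became 1 without sgZ3 replicate 1 or 2 or sgC replicate 1 or 3. AXL, a receptor kinase, stood highest in the libraries with fibroblast markers, with 8.80, 24.6 and 9.71 CPM in sgZ1, and 0.68, 0.92 and 18.4 CPM in sgZ3, against 1.12, 1.07 and 1.32 CPM in sgC.

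**Figure D4:**
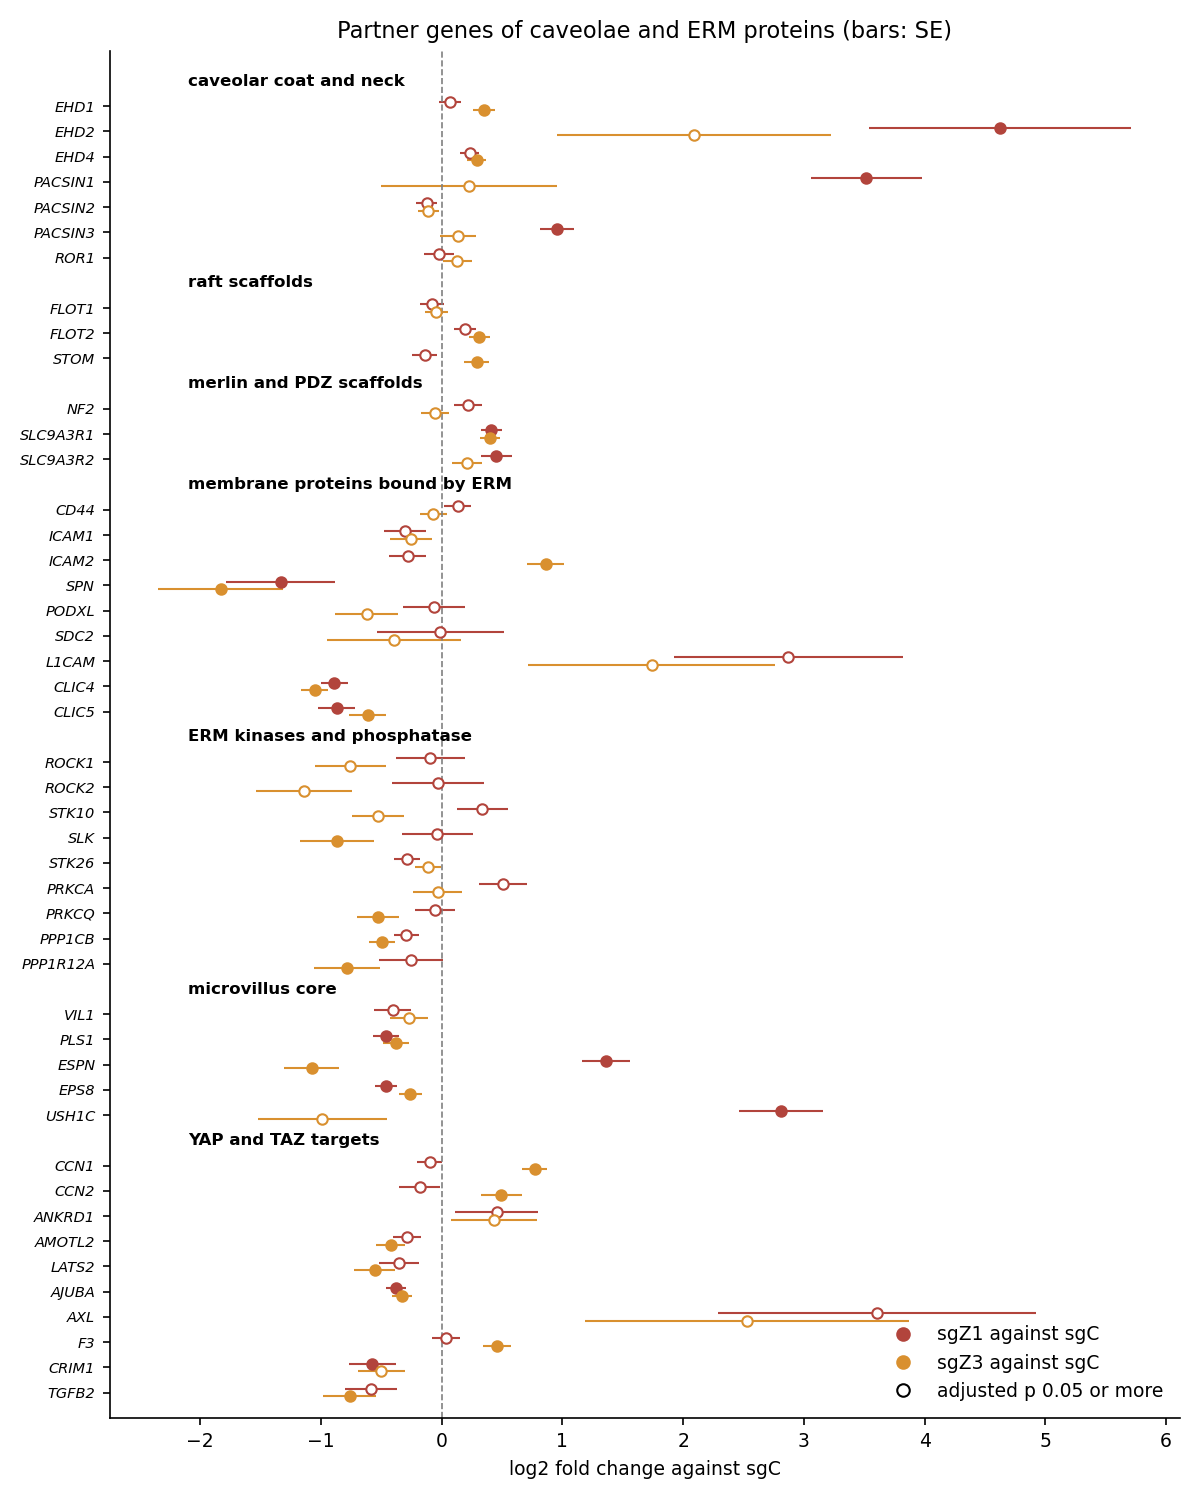
Log2 fold changes of tested partner genes by list, with red for sgZ1 over sgC above orange for sgZ3 over sgC, bars of 1 SE and open points at an adjusted p of 0.05 or more; PACSIN1, SPN and USH1C would not have passed the filter without the group where they were high. EHD2 at 4.63 is the far point of the caveolar list in sgZ1, CLIC4 lies at -0.89 and -1.05, and ESPN lies on both sides of 0.

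Over the 9 libraries the members' profiles were compared by correlation. These correlations are of log2(CPM + 0.5), the libraries share 3 groups, and they describe these libraries only. CAV1 and CAV2 had a Pearson's r of 0.98, and MSN and CAVIN3 one of 0.97. CAVIN1 had 0.73 with CAV2, 0.76 with EZR, 0.80 with MSN, 0.82 with CAV1 and 0.90 with CAVIN3. RDX had 0.20 with CAVIN1, 0.24 with CAV1 and at most 0.63, with MSN. Among 10410 genes with a mean of at least 5 CPM, the 5 most like CAV1 were CPNE7 (r = 0.992), PTMAP2 (r = 0.991), HS3ST1 (r = 0.988), MAGEB2 (r = 0.988) and MID1 (r = 0.988). HS3ST1, a heparan sulfate sulfotransferase, had 108, 126 and 126 CPM in sgZ1 and 38.6, 38.1 and 36.8 CPM in sgZ3, against 23.2, 22.8 and 22.5 CPM in sgC, with the 3 groups in the order of CAV1. The 5 most like MSN were ANO6 (r = 0.993), OSMR (r = 0.990), EHD2 (r = 0.985), UNC5B (r = 0.984) and ANTXR1 (r = 0.983). ANO6, a lipid scramblase, had 26.2, 30.2 and 23.6 CPM in sgZ1 and 1.96, 1.57 and 10.1 CPM in sgZ3, against 4.19, 5.14 and 3.50 CPM in sgC. Like MSN, ANO6 was lower in sgZ3 replicates 1 and 2 than in any sgC library and higher in sgZ3 replicate 3.

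**Figure D5:**
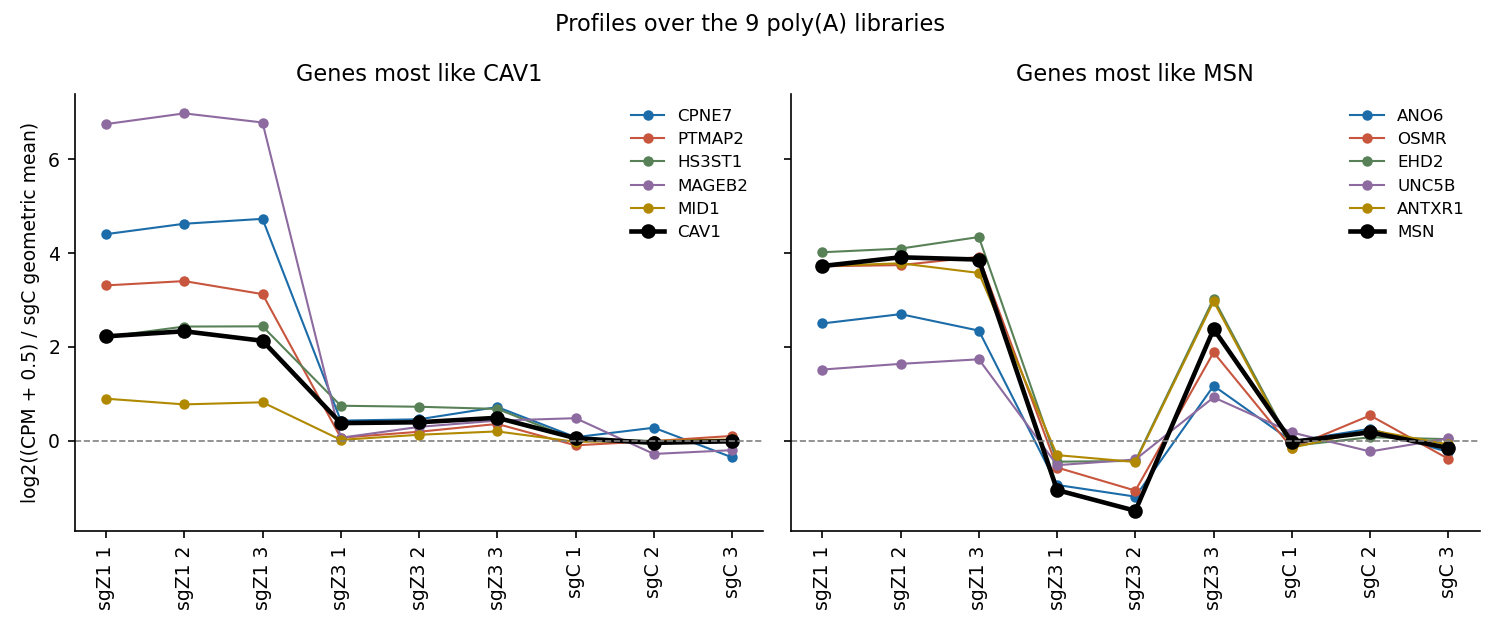
Profiles over the 9 libraries of CAV1 (left, black) and MSN (right, black) with the 5 genes of highest Pearson correlation to each, as log2 of CPM + 0.5 over the geometric mean of sgC. The CAV1 set is highest in the 3 sgZ1 libraries, while the MSN set is also raised in sgZ3 replicate 3.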

How the data were processed

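Poly(A) RNA of DLD1 was sequenced in 9 libraries, and the authors deposited raw counts, whole numbers for each gene in each library. As tools, the submitters' processing notes list DESeq2, HTSeq, SAMtools 1.9 and STAR 2.5.2b, without saying what each did, and as builds GRCh38 and hg38. Strand setting and annotation release: not given in the sources used here. Poly(A) counts miss RNA without a tail, and counts of near-identical genes depend on how shared reads were treated. Groups came from the sample titles. A second deposited table, 9 columns over 20 ribosomal RNA entries, was not used.

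The analysis used edgeR 4.0.16 in R 4.3.3, with filterByExpr, TMM scaling and a robust quasi-likelihood model of the 3 groups fitted to the 9 libraries together. P-values were adjusted by Benjamini-Hochberg over all 14732 genes tested and called under 0.05. The biological coefficient of variation, common to all genes, was 12.7%. Comparisons were each guide against sgC, the mean of both guides against sgC, and sgZ1 against sgZ3. Replicates differed by more than counting noise (chi-square over degrees of freedom 4.19 to 32.7), so none was treated as a duplicate. The Poisson interval and the floors cover counting error only, while the intervals of fold changes come from the fit and include the spread between libraries. Of the table's gene IDs 95.3% were found in GENCODE 29, which gave coordinates and the exon length used for levels per kb. Promoter windows came from RefSeq (GRCh38.p14); CAVIN1 and CAVIN3 have no entry in that table.

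The members and the gene lists were chosen with earlier results of these data known. The text names the members, all tested genes of the caveolar and scaffold lists, and the 5 genes most like CAV1 and MSN. It also names ZNF692, cell type markers and genes that mark libraries standing apart. Of each other list it names up to 4 genes with the smallest adjusted p over the comparisons of each guide with sgC. CRIM1, AXL and VIL1 are named outside that rule, and other exceptions are stated where they occur. A gene of the list of membrane proteins bound by ERM is counted there but not reported here by name or in the plot of partner genes.

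The model was tested on simulated counts for sgZ1 against sgC over 14246 genes. It recovered 50% of 1.5-fold changes, 94% of 2-fold, 96% of 4-fold and 100% of 8-fold ones, and 7 of its 177 calls were false. All genes were drawn around the sgC mean with the same spread, the changed genes averaged at least 1 CPM, and no library was set apart. These rates therefore do not carry over to scarcer genes or to genes of wider spread, such as MSN and EHD2. Alternatives were DESeq2 1.42.0, limma-voom (limma 3.58.1), upper-quartile and RLE factors, unscaled library totals, no filter, a mean of at least 10 CPM, only the groups compared, the replicate block, and fits leaving out 1 library or both libraries with fibroblast markers.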

Additional observations from a re-analysis of the deposited data

Results flagged for a closer look

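The guides were compared directly (log2 fold change of sgZ1 over sgZ3, the quasi-likelihood test of edgeR, adjusted by Benjamini-Hochberg), and the following members and list genes that were called against sgC differed between the guides. Among members, CAV2 differed by 1.22 (SE 0.11, adjusted p = 1.1e-05) and EZR by 0.75 (SE 0.13, adjusted p = 0.0012). Among caveolar genes, PACSIN3 differed by 0.82 (SE 0.14, adjusted p = 0.0013) and EHD1 by -0.28 (SE 0.09, adjusted p = 0.034). EHD1 missed the threshold in 13 of the alternative fits. STOM differed by -0.43 (SE 0.10, adjusted p = 0.0089) and ICAM2 by -1.14 (SE 0.15, adjusted p = 0.00022). In the microvillus list, ESPN differed by 2.44 (SE 0.22, adjusted p = 8.3e-06). In the YAP and TAZ list, CCN1 differed by -0.87 (SE 0.10, adjusted p = 8.1e-05) and F3 by -0.42 (SE 0.12, adjusted p = 0.017). CCN2, named after its values were seen, differed by -0.68 (SE 0.17, adjusted p = 0.012). PACSIN1 and USH1C would not have passed the low-count filter without the sgZ1 libraries, where they are high. Their differences of 3.29 (SE 0.47) and 3.80 (SE 0.41) are therefore described without a test. F3 missed the threshold with library totals alone and without sgZ1 replicate 1 or 3 (adjusted p = 0.073, 0.054 and 0.056).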

How the results depend on the processing

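Of 150 values of the gene and member counts under alternatives, 125 stayed within 1.5 times their main count. Of 1343 gene values 1175 stayed the same, which means an unchanged direction and side of the threshold. For CAV1 and MSN, which have no test, it means an unchanged direction and a shift smaller than the gene's SD within groups. The 1343 also include CAVIN3, PACSIN1, USH1C and SPN, which are described without a test. Genes called in sgZ1 against sgC numbered 3807, and 2527 at a mean of at least 10 CPM, 5894 without the libraries with fibroblast markers (sgZ1 replicate 2 and sgZ3 replicate 3), and 2129 to 4855 when 1 library was left out. For sgZ3 against sgC they were 5355, then 8246 without those libraries and 3080 to 6796 with 1 library out; for both guides 4885, 7409 and 2201 to 6337. For sgZ1 against sgZ3 they were 4209, then 2676 at a mean of at least 10 CPM, 7932 without those libraries and 2501 to 6153. The member counts among the 150 include CAVIN3, which is described without a test. It is left out of the sgZ3 against sgC counts that follow. Of the 4 tested members, CAVIN1 was called in sgZ3 against sgC. With no low-count filter CAVIN1 and RDX were called, and without those libraries CAVIN1, EZR and RDX. With 1 library out, 0 to 2 were called. For sgZ1 against sgZ3 the member counts are given with CAVIN3 among them, as a description. They were 2, then 4 with library totals alone, 5 with no filter, 5 without those libraries and 2 to 5 with 1 library out. Each 5 is the 4 tested members and CAVIN3. RDX in sgZ1 against sgC reversed to -0.016 with upper-quartile factors, -0.035 with library totals and -0.0071 with only the groups compared, and ran from -0.076 to 0.059 with 1 library out. CAV2 in sgZ3 against sgC reversed to -0.010, -0.097 and, without those libraries, -0.034. MSN in sgZ3 against sgC reversed to -1.48 without those libraries and -0.043 with limma-voom, and ran from -1.43 to 1.60; EHD2 reversed to -0.71 without those libraries and ran from -0.66 to 2.60. The cause was not tested. Library totals moved the median of all genes by -0.15 in sgZ3 against sgC, -0.10 over both guides and 0.11 in sgZ1 against sgZ3. The share of calls that were higher in sgZ3 against sgC was 52.9%, then 41.5% with upper-quartile factors, 29.6% with library totals and 43.3% without those libraries. Over both guides it was 56.0%, then 36.6% with totals and 45.9% with upper-quartile factors, and in sgZ1 against sgZ3 55.3%, then 73.0% with totals. Replicate numbers paired the samples only in part (correlations of same-numbered deviations from -0.129 to 0.341). Replicates 2 and 3 of each guide were most like the same-numbered sgC replicate (0.341 and 0.192 in sgZ1, 0.188 and 0.308 in sgZ3). Replicate 1 was under 0.1 in each pair of groups, and no sgZ1 replicate was most like its namesake in sgZ3. With the replicate block 4202 genes were called in sgZ1 against sgC, 5974 in sgZ3 against sgC, 5488 over both guides and 5005 in sgZ1 against sgZ3. Depth limits CAVIN3, at 0 to 77 counts a library.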
